A study of Mus musculus with 3 samples.

Results

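Trh, Calca and Cck are genes of secreted peptides that lay at opposite ends of the expression difference between mouse embryoid bodies without Hopx and embryoid bodies with a working copy of it. They were chosen by their log2 ratios on these same arrays, as neuropeptide genes with very large changes in both directions, with no numerical threshold stated. Their ratios are therefore a description, with no test. They are 3 of the 32176 gene names on the array and are read by 4 of its 39429 non-control probes, each printed once per array. All 4 probes passed the filter on dim signals, the dimmer of the Calca probes only through its signal in cultures without Hopx.

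Hopx-/- (null) embryoid bodies were compared with Hopx+/- (heterozygous) embryoid bodies, both at day 8 of cardiac differentiation. Embryoid bodies are aggregates of differentiating embryonic stem cells. Per the labels, the stem cells of both genotypes came from blastocysts, were kept on feeder fibroblasts, and were differentiated with VEGF, bFGF, FGF10 and ascorbic acid. Each of 3 replicates was a 2-colour array carrying RNA of a null and a heterozygous culture, so each ratio was measured within an array. The labels do not say whether replicates were separate lines or separate differentiations, so the spread may be partly technical. A difference between genotypes cannot be told apart from a difference between the stem cell lines. No culture with both copies of Hopx was part of the comparison.

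The direction of the ratios needs a statement before any value. By the labels, null RNA carried Cy5 on every one of the 3 arrays, but as labelled replicate 3 correlated with replicates 1 and 2 at r = -0.903 and -0.902 over probes. Replicates 1 and 2 correlated at r = 0.939. Set against the scanner ratios, the authors' deposited table has replicate 3 reversed (r = -0.867), while replicates 1 and 2 run the same way (r = 0.929 and 0.919). Replicate 3 was therefore turned throughout, as in the authors' table. Hopx itself, the deleted gene, then had log2 ratios (null over heterozygous) of -2.98, -2.97 and -3.45 on the 3 arrays, with an adjusted p of 3.16e-07 (limma). A further Hopx probe averaged -2.53. With the same dye label on arrays that run opposite ways, Hopx is the measurement that bears on the direction. If replicate 3 were the array labelled correctly, every sign would change, and Hopx would be higher in the cultures labelled null, at 3.13 and 2.53 by its probes. The labels do not say whether these probes lie in the deleted stretch. With every sign changed, Trh would have a mean log2 ratio of -3.998, Calca of -3.96 and Cck of 3.94.

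Trh encodes the precursor of thyrotropin-releasing hormone, an amidated tripeptide of the hypothalamus that makes the pituitary release thyrotropin and prolactin. Calca encodes calcitonin, the calcium-lowering hormone of thyroid C cells, and calcitonin gene-related peptide (CGRP), a vasodilator of sensory neurons, made from the same gene by alternative splicing. Cck encodes cholecystokinin, which acts on the gallbladder, the pancreas and the brain, and its transcript has also been described in heart muscle cells. All these peptides are cut from larger precursors in secretory vesicles, trimmed, and amidated at their ends.

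The 250 bases before each gene's RefSeq start (GRCm38.p6, all on the minus strand) are shown so that what the promoters of genes with opposite changes share can be read, since all 3 genes are known to respond to cAMP. Capitals mark every match to TGACG, the short core of the cAMP response element, and to TGACCTCA, each read on both strands. Trh lies at chr6:92244651-92244900, Calca at chr7:114636358-114636607 and Cck at chr9:121495695-121495944.
Trh: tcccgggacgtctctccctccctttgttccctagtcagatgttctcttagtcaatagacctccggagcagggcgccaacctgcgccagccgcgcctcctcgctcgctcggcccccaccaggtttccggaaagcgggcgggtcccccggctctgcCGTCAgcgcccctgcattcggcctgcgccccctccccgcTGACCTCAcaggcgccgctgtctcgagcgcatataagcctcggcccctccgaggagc
Calca: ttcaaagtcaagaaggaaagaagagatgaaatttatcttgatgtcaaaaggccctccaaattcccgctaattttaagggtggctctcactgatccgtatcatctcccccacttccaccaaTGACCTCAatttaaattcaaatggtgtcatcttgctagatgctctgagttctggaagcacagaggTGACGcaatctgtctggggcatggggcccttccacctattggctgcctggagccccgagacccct
Cck: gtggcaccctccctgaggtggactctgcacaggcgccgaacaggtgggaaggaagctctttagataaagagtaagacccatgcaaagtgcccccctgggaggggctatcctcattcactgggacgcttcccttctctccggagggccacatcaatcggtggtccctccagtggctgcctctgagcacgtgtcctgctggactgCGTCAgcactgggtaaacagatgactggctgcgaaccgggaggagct

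TGACG was found in all 3 windows, with its first base 96 bases before the start in Trh, 65 in Calca and 47 in Cck, and 17.8% of the 32851 promoter windows of this length held it. The full palindrome TGACGTCA was in none of the 3 and in 1.55% of all windows. TGACCTCA was in Trh, 57 bases before the start, and in Calca, 130 bases before it, but not in Cck, and 1.94% of all windows held it. That motif was chosen after the 3 windows had been read, and it overlaps the nuclear receptor half-site AGGTCA on the other strand, which 14.0% of windows held. CACGTG, the E-box of basic helix-loop-helix factors, stood 66 bases before the start of Cck and in neither other window (6.02% of all windows). TATAAA was in none of the 3 (12.4% of all windows), CCAAT in Calca (33.8%) and GGGCGG in Trh (32.7%), all searched on both strands. The windows differed in base composition: 68.8% G and C with 25 CpG pairs in Trh, 48.0% with 4 in Calca and 60.0% with 9 in Cck, beside medians of 52.4% and 6 over all windows. These matches are letters in a window and were not measured as binding.

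With the normalization used throughout, Trh had the highest ratio of the 19825 genes tested. Its spot, after subtraction of the local background, read 19371, 22350.5 and 27617 scanner units in null cultures, against 793, 761 and 1132 units in heterozygous cultures. The lowest null reading was far above the highest heterozygous one, a separation that the choice by very large ratios favours for every member. The heterozygous signal was itself well above background on all 3 arrays. After normalization the log2 ratios were 3.78, 4.31 and 3.90, with a mean of 3.998 ± 0.276 (SD, n = 3 arrays), 15.98-fold higher in null cultures.

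Calca, measured by its bright probe (made to NM_001033954), had the next highest ratio with the same normalization. The probe read 3384, 4894 and 5717 units in null cultures, against 113, 137.5 and 190.5 units in heterozygous cultures. Both channels were well above background on all 3 arrays. The log2 ratios were 3.72, 4.30 and 3.86, with a mean of 3.96 ± 0.30 (SD, n = 3 arrays), 15.6-fold higher in null cultures.

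The other Calca probe (made to NM_007587) was dim. It read 46, 59.5 and 74 units in null cultures, against 7, 2 and 5 units in heterozygous cultures. It was well above background on all 3 arrays in null cultures and on none in heterozygous cultures, so its fold has only a lower bound. Its log2 ratios were 0.51, 0.78 and 0.77, and with the normalization used throughout null cultures were higher by at least 1.61-fold. That size depends on how background is handled, and the offset added before logs pulls such dim spots towards 0. The scanner software's processed signals gave log2 ratios of 2.16, 3.40 and 3.42, with a mean of 2.99. The authors' deposited values gave a mean of 0.46, 1.37-fold and so below that bound. Signals of different probes cannot be set against each other, and which Calca transcript each accession stands for was not used here, so the data do not divide the gene's signal between calcitonin and CGRP.

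**Figure D1:**
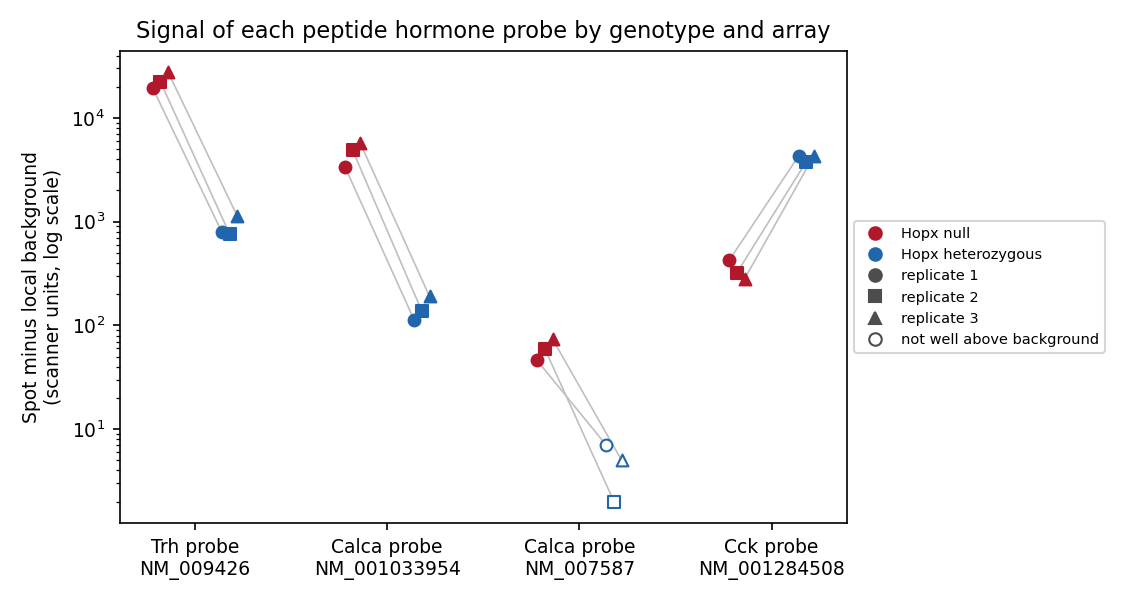
Spot signal minus local background (scanner units, log scale) for each probe, with null left of heterozygous and a line joining the channels of an array. The 3 null readings of Trh lie between 19371 and 27617 and those of the bright Calca probe between 3384 and 5717, all above their heterozygous readings, while the 3 null readings of Cck lie between 282.5 and 426.5, all below theirs. Open symbols are not well above background.

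Cck lay at the other end, with the 13th lowest ratio of the 19825 genes. Its probe (made to NM_001284508) read 426.5, 323.5 and 282.5 units in null cultures, against 4292, 3791 and 4337 units in heterozygous cultures. The low null signal was still well above background on all 3 arrays. The log2 ratios were -3.82, -3.66 and -4.33, with a mean of -3.94 ± 0.35 (SD, n = 3 arrays), 15.3-fold lower in null cultures.

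With this normalization the sizes of these ratios were close to each other. Trh and Calca were 15.98-fold and 15.6-fold higher in null cultures, and Cck 15.3-fold lower. In the same order, median centring without loess gave 21.4, 19.7 and 11.9-fold, and the authors' deposited values 14.0, 12.5 and 12.2-fold. The order of Trh and Calca depended on the processing. Calca had the larger mean log2 ratio with a background offset of 10 (4.24 against 4.05) and without background correction (4.13 against 4.02). Processed signals also put Calca above Trh (4.44 against 4.06). Replicate 2 gave the largest ratio for both Trh and Calca, and replicate 3 the largest for Cck. The SDs between arrays of these genes, 0.28 to 0.35, were above the median of 0.14 over the 24587 probes kept, most of which had far smaller ratios. Other genes with large ratios had SDs on both sides of these: 0.13 for Mesp1, 0.18 for Cubn, 0.34 for Myl7 and 0.47 for Fgf5. Over 399 probes printed 10 times, the median SD between spots of an array was 0.0809. All 3 genes kept their direction under 6 ways of making the values from the deposited files. Over those and the leave-one-out, probe and outlier alternatives, replicate 3 as labelled apart, the mean log2 ratio ranged from 3.81 to 4.42 for Trh and from -4.23 to -3.57 for Cck. Calca ranged from 2.32, where its bright and dim probes were averaged, to 4.44.

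**Figure D2:**
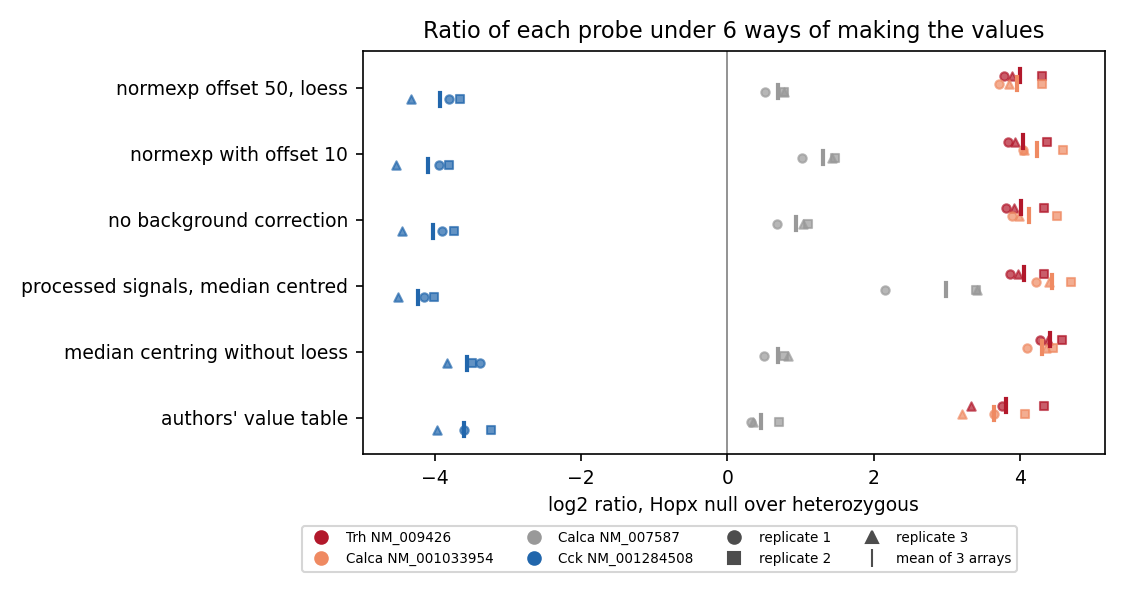
Log2 ratios (null over heterozygous) of each probe on each array under 6 ways of making the values, with a bar at the mean of 3 arrays. Trh stays between means of 3.81 and 4.42 and Cck between -4.23 and -3.57, while the dim Calca probe moves most, to a mean of 2.99 with the processed signals.

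These ratios stood on a background in which most genes differed. Of the 19825 genes tested, 11944 passed an adjusted p of 0.05 (60.2%), 5980 higher in null cultures (30.2%) and 5964 lower (30.1%). Of these, 2160 genes also changed 2-fold or more (10.9%), 965 higher (4.87%) and 1195 lower (6.03%). The median log2 ratio of all genes was 0.004, and the extremes were -5.31 and 3.998. In a bulk sample, fewer cells of a type and less RNA per cell cannot be told apart. Counts of the lists below are to be read against these shares.

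The genes whose ratios were most like each member were found by Euclidean distance over the 3 arrays' log2 ratios, among 14086 named genes measured on all 3. With 3 points per gene, and on the ratios by which the members were chosen, this is a description of size and spread. Genes with similarly large ratios therefore come first. Trh and Calca, with the highest and next highest ratios under this normalization, were each other's nearest gene, at a distance of 0.08. The next nearest to both were Mesp1, a transcription factor of nascent mesoderm with a mean log2 ratio of 3.76, Fgf5, a growth factor of the epiblast at 3.65, Slc27a2, a fatty acid transport protein at 3.65, and Rbbp9, a serine hydrolase at 3.47. Their distances from Trh were 0.496, 0.673, 0.796 and 1.005. None of these 4 is a peptide hormone gene.

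The genes nearest to Cck were mostly of heart muscle. Myl3, an essential myosin light chain of ventricular muscle, lay at a distance of 0.126 with a mean log2 ratio of -3.98. Mybpc3, cardiac myosin-binding protein C, followed at 0.297 and -3.97, and Myl7, the atrial regulatory light chain, at 0.320 and -4.11. Fxyd3, a regulator of the sodium pump, lay at 0.412 and -3.76, and Pgam2, the muscle form of phosphoglycerate mutase, at 0.467 and -3.72.

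**Figure D3:**
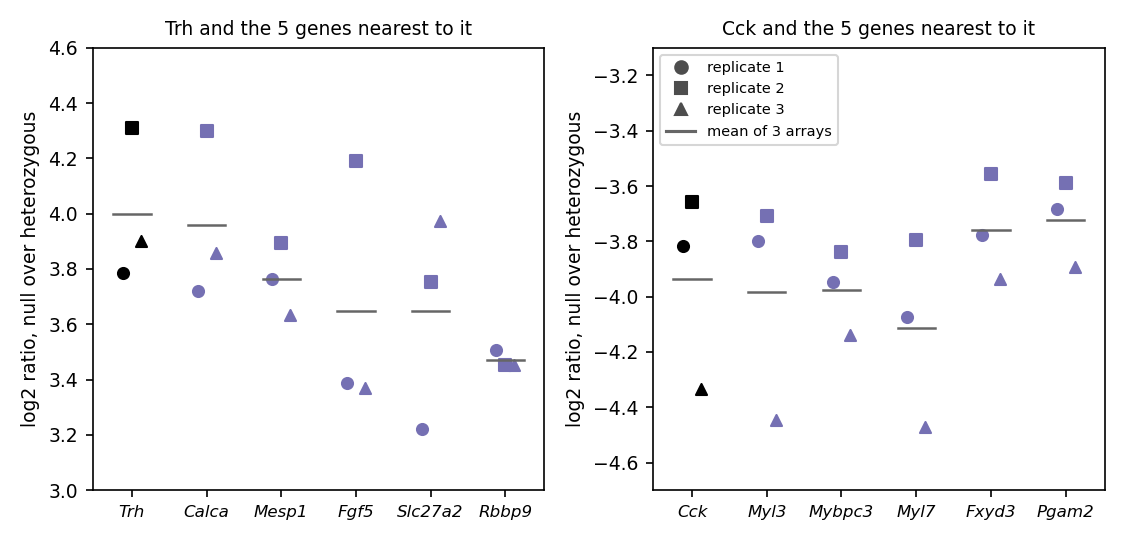
Log2 ratios (null over heterozygous) per array for Trh (left) and Cck (right), each with the 5 genes nearest to it, and a line at the mean of 3 arrays. The genes beside Trh have means from 3.47 to 3.96, and those beside Cck from -4.11 to -3.72.

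Markers of cell types that embryoid bodies hold changed in both directions. All 7 cardiomyocyte markers (Myh6, Myh7, Tnnt2, Actn2, Myl7, Nkx2-5 and Nppa) fell, with a median log2 ratio of -2.93. The summed signal of the 6 measured on every array was 2550 to 4379 in null cultures, against 84718 to 115420 in heterozygous cultures. All 6 endoderm markers (Sox17, Foxa2, Cubn, Amn, Afp and Ttr) fell too, with a median of -2.53 and sums of 10985 to 15349 in null cultures, against 53361 to 71247 in heterozygous cultures.

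Markers of earlier and of neural cells were higher. All 5 epiblast markers (Fgf5, Pou3f1, Otx2, Dnmt3b and Pou5f1) rose, with a median of 2.89 and sums of 47640 to 58409 in null cultures, against 7207 to 9503 in heterozygous cultures. All 5 primitive streak markers rose (Mesp1, Eomes, Fgf8, T and Mixl1), with a median of 2.52 and sums of 4671 to 5263 in null cultures, against 1059 to 1460 in heterozygous cultures. T and Mixl1 were not well above background on any array in heterozygous cultures. With the normalization used throughout, the bounds on their mean ratios were 6.72-fold and 1.91-fold higher in null cultures. All 6 neural markers rose (Olig1, Zic2, Tubb3, Nes, Sox2 and Sox1), with a median of 2.14 and sums of 7535 to 8973 in null cultures, against 1819 to 2145 in heterozygous cultures. The call for Sox1 (log2 ratio 0.25, adjusted p 0.0459, limma) was lost without any 1 of the replicates.

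Of the cells known to make these hormones in the adult, the neuroendocrine ones had no common direction. Of 6 markers of enteroendocrine and thyroid C cells, Chga, the chromogranin A gene, rose at 0.95 and Pax9 fell at -1.31, with its null signal well above background on 1 array. Syp at 0.05 and Neurog3 at 0.03 did not pass the test. Nkx2-1 and Neurod1, defining factors of C cells and of hormone-producing gut cells, were not tested, being well above background on at most 1 array in either genotype. The sum of the 4 measured was 1152 to 1709 in null cultures, against 1063 to 1566 in heterozygous cultures, and the ranges overlapped.

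Of 6 feeder fibroblast markers, Col1a2 at 1.59, Dcn at 1.05, Col3a1 at 0.80 and Thy1 at 0.27 rose, while Pdgfrb at 0.21 and Col1a1 at -0.19 did not pass. Thy1 was no longer called without replicate 1 or 2 (limma adjusted p 0.0755 and 0.0817), nor Col3a1 with processed signals (0.0643). The sum over the 5 measured on every array was 43673 to 62470 in null cultures, against 20361 to 27733 in heterozygous cultures. The part of any of these cell types in the ratios of Trh, Calca and Cck was not tested.

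The genes around the members in the peptide hormone systems were taken as 10 lists of 176 genes, without Trh, Calca and Cck. Of the 173 on the array, 117 could be tested, and 44 rose, 30 fell and 43 did not pass (63.2% called, beside 60.2% of all genes). Of the calls, 6 higher and 10 lower ones were 2-fold or more (13.7% of those tested, beside 10.9%). The median log2 ratio was 0.05. None of the 117 reached the sizes of the members, which were chosen for very large changes. The highest was Penk at 2.48 and the lowest Pyy at -2.94.

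**Figure D4:**
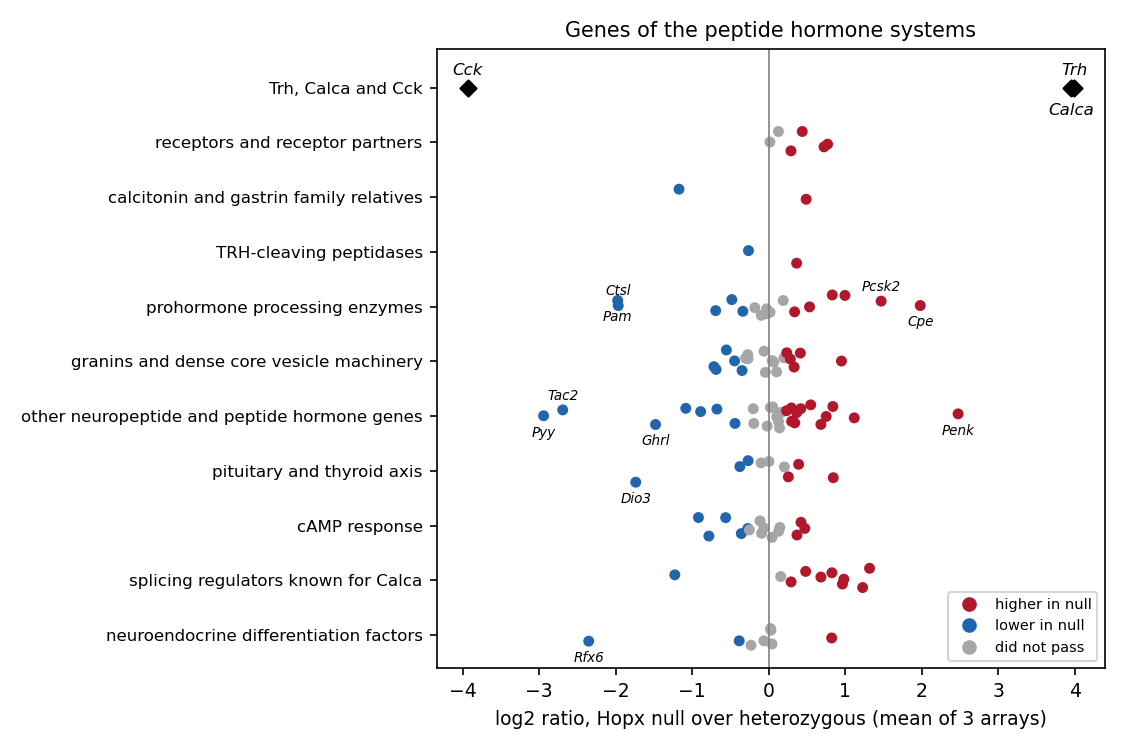
Mean log2 ratio (null over heterozygous) of each tested gene in the 10 lists of the peptide hormone systems, coloured by its call at an adjusted p of 0.05, with Trh, Calca and Cck as diamonds in the top row. The 117 genes lie between -2.94 and 2.48, inside the range spanned by the members, which were chosen for very large changes.

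Receptors were read poorly. Both receptors for thyrotropin-releasing hormone, Trhr and Trhr2, and the gut-type cholecystokinin receptor Cckar were well above background on no array in either genotype. Calcrl, which binds CGRP when paired with Ramp1, was so on 2 arrays in each genotype and was not tested. Of the 6 receptor genes and partners tested, 4 rose and none fell.

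Calcr, the calcitonin receptor, had log2 ratios of 0.63, 0.78 and 0.91, 1.71-fold higher in null cultures (SE 0.09, limma adjusted p 0.000123). Ramp3, which turns the calcitonin receptor into an amylin receptor, had 0.77, 0.93 and 0.48 (adjusted p 0.000387), and Crcp, the CGRP receptor component protein, rose at 0.44 (adjusted p 0.00225). Cckbr, the brain-type cholecystokinin receptor, rose by less, 0.29 (adjusted p 0.0130), and was no longer called without replicate 1 or 2 (adjusted p 0.0519 and 0.0671), with both channels required above background (0.531) or with its probes averaged (0.0807). Ramp1 at 0.02 and Ramp2 at 0.13 did not pass. The receptor list's median was 0.37, and no gene of it reached 2-fold.

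Of the 5 relatives of the members, 2 could be tested, and they differed in sign. Adm, adrenomedullin, a vasodilator of the calcitonin family, fell with log2 ratios of -1.02, -1.01 and -1.48 (limma adjusted p 3.78e-05), opposite in sign to Calca. Adm2, another member of that family, rose at 0.49 (adjusted p 0.000963), though not in the authors' deposited table of values (0.151). Calcb, the second CGRP gene, and Iapp, amylin, were well above background on no array. Gast, gastrin, the relative of Cck, was so on 1 array in each genotype and was not tested.

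The peptidases that break down thyrotropin-releasing hormone split. Prep, prolyl endopeptidase, rose at 0.37 (limma adjusted p 0.00441, or 0.0575 with the authors' deposited values), while Pgpep1, pyroglutamyl peptidase, fell at -0.26 (adjusted p 0.0242). The Pgpep1 call was lost without any 1 of the replicates (adjusted p 0.0642 to 0.0798), and its sign turned under median centring. Trhde, the membrane enzyme specific for the hormone, was well above background on no array.

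The enzymes that make active peptides from precursors changed in opposite directions. Of 17 tested, 6 rose, 5 fell and 6 did not pass, with a median of -0.02. Cpe, the carboxypeptidase that trims cut precursors, had log2 ratios of 1.73, 2.10 and 2.12, 3.95-fold higher in null (limma adjusted p 1.53e-06). Pcsk2, a prohormone convertase, had 1.28, 1.65 and 1.49, 2.77-fold higher (adjusted p 5.03e-06). Its partner convertase Pcsk1 rose at 0.83, with the heterozygous signal well above background on 1 array. Pcsk1n, an inhibitor of Pcsk1, rose at 0.998.

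Pam, the enzyme that amidates all of these peptides at their ends, fell, with log2 ratios of -2.02, -1.78 and -2.12, 3.93-fold lower in null cultures (limma adjusted p 1.11e-06). Ctsl, cathepsin L, a protease of lysosomes that can also cut precursors, had -2.13, -2.08 and -1.69 (adjusted p 1.91e-06). Furin, the general convertase, fell at -0.48. Qpct and Qpctl, which form the blocked first residue of thyrotropin-releasing hormone, did not pass at -0.03 and 0.19. Nor did Tpst2, which sulfates cholecystokinin, at -0.10, and its partner Tpst1 was not tested.

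Of 19 genes of granins and dense core vesicles tested, 5 rose, 5 fell and 9 did not pass, with a median of -0.04, and none reached 2-fold. Chga had log2 ratios of 0.76, 1.105 and 0.995. Rab3a, a vesicle GTPase, fell at -0.71, and Cadps, a priming factor for vesicle release, at -0.69. Scg2, secretogranin II, was well above background on no array in null cultures. With the normalization used throughout, the bound on its mean ratio was 1.47-fold lower, from log2 ratios of -0.23, -0.59 and -0.84.

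Among 29 other peptide hormone and neuropeptide genes tested, 12 rose, 7 fell and 10 did not pass, with a median of 0.13. The 27 remaining ones on the array were below the filter in both genotypes. Penk, the precursor of enkephalins, had log2 ratios of 2.27, 2.55 and 2.62, 5.57-fold higher in null (limma adjusted p 4.59e-07). Apln, the ligand of the apelin receptor, had 0.55, 1.08 and 1.73, with the widest spread of these.

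The falling peptide genes reached larger sizes. Pyy, peptide YY of gut endocrine cells, had log2 ratios of -2.76, -2.80 and -3.27, 7.69-fold lower in null cultures (limma adjusted p 4.59e-07). Tac2, the precursor of neurokinin B, had -2.56, -2.90 and -2.61, 6.46-fold lower (adjusted p 3.16e-07). Ghrl, ghrelin, fell at -1.48 and Npb, neuropeptide B, at -1.08.

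In the pituitary and thyroid axis, on which thyrotropin-releasing hormone acts, the pituitary hormone genes Tshb, Cga, Prl, Gh and Fshb were well above background on no array in either genotype. Of 9 genes tested, 3 rose, 3 fell and 3 did not pass. Dio3, which inactivates thyroid hormone, fell at -1.74, 3.33-fold lower in null cultures (limma adjusted p 1.12e-06). Slc16a10, a transporter of aromatic amino acids and thyroid hormone, rose at 0.39 (adjusted p 0.00710). Thra, a thyroid hormone receptor, fell at -0.38 (adjusted p 0.0126), but not without replicate 2 (adjusted p 0.118), and its sign turned under median centring.

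Genes of the cAMP response, whose element core the 3 promoters hold, had no common direction: of 15 tested, 3 rose, 5 fell and 7 did not pass, with a median of -0.09. The largest changes were falls in Fos at -0.92 (limma adjusted p 0.000105) and Nr4a1 at -0.78 (adjusted p 9.06e-05), both immediate early genes. Sik1, a kinase induced by cAMP, fell at -0.56 but was not called under median centring (adjusted p 0.0967). Creb1, which encodes the factor that binds the element, rose at 0.47, while its dimmer probe fell at -0.23. The mean of its probes was not called (adjusted p 0.202).

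Of 10 splicing regulators known for work on Calca or of such families tested, 8 rose, 1 fell and 1 did not pass, with a median of 0.76. Rbfox1 rose at 1.32, Srsf3 at 1.23 and Elavl3 at 0.98. Rbfox2 was called lower at -1.23 by its brightest probe, while another probe of it was called higher at 0.32. Rbfox1 and Elavl3 are largely neuronal, while Rbfox2 and Srsf3 are broadly expressed. The neural markers rose in the same cultures, and their part here was not tested.

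Of 8 neuroendocrine differentiation factors tested, 1 rose, 2 fell and 5 did not pass. Insm1, a zinc finger factor of endocrine precursors, rose at 0.82 (limma adjusted p 5.72e-05). Rfx6, a factor of endoderm and islets, had log2 ratios of -1.88, -2.39 and -2.78, 5.10-fold lower in null cultures (adjusted p 4.45e-06). Prox1 fell at -0.38, with its null signal well above background on 1 array, and was not called with the authors' deposited values (adjusted p 0.423).

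The neighbours of the members on their chromosomes were read as the 3 nearest measured genes on each side in RefSeq order, 18 in all. Of these, 5 rose, 4 fell and 9 did not pass (50.0% called, beside 60.2% of all genes), and 1 changed at least 2-fold. Of the falls, those of Magi1 and Nktr changed sign under median centring. On the Trh side of chromosome 6, Adamts9, a secreted protease 528 kb away, fell at -0.81 (limma adjusted p 7.44e-05). Slc25a26, a mitochondrial carrier 2256 kb away, rose at 0.56. Nearer to Trh, Rbsn (27 kb) and Nr2c2 (69 kb) did not pass at -0.01 and -0.11, while Mrps25 (58 kb) rose at 0.44. Beside Calca on chromosome 7, Pde3b, a phosphodiesterase that breaks down cAMP, 88 kb away, rose at 0.87 (adjusted p 3.39e-05). Plekha7, a junction protein 1487 kb away, fell at -0.89. The nearest, Cyp2r1 at 63 kb, did not pass at -0.15.

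Beside Cck on chromosome 9, Ctnnb1, beta-catenin, did not pass at 0.09, nor did Ulk4 at -0.04, Trak1 at -0.02 or Ss18l2 at -0.06. Vipr1, a receptor for vasoactive intestinal peptide, rose at 1.11 (SE 0.10, limma adjusted p 2.46e-05), opposite in sign to Cck, and at 0.61 with its probes averaged. No neighbour came near the size of the member it stood beside, and the members were chosen for very large changes.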

How the data were processed

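Per the file headers, Agilent Feature Extraction 11.5.1.1 wrote the deposited spot intensity values of both channels, with local backgrounds and flags, whereas version 8.5.1.1 stands in the submitters' processing notes. The authors also deposited a table of processed values, read here as log2 ratios, whose scale, centring and normalization are not stated (column medians -0.10, -0.11 and 0.07). It served to turn replicate 3 and as an alternative. The arrays share 1 slide and 1 scan, and each pairs the genotypes within itself.

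With limma 3.58.1 in R 4.3.3, foreground medians had normexp background correction (offset 50), then loess within each array. Control and outlier spots had weight 0 and were left out, and spots of a probe were averaged. Once turned, the arrays hold both dye orientations, 2 against 1, which leaves part of any dye effect in the mean. A probe was kept if 1 genotype was well above background on all 3 arrays (24587 of 39429). In a given channel 61.9% to 72.9% of spots were well above background, and precision is limited by the number of arrays. Ratios were tested against 0 with lmFit and eBayes, two-sided, with Benjamini-Hochberg adjustment over the probes kept, and a gene took its brightest probe. For a lower bound, the dim channel took its own signal on each array or, if higher, the lowest of any probe well above background. In the bounds given here this changed nothing, and each equals the fold of the mean ratio. A single array or another processing can therefore fall below a bound. Marker sums are of normalized signals. The test was also tried on simulated ratios.

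A RefSeq table (GRCm38.p6), joined on accessions without their versions, gave gene names to 28025 probes (71.1%). The array design is on mm9 per the file headers, so that table served only for names and gene order, and the promoter sequences are RefSeq's on its own build. The members, the gene lists and the tests were chosen with earlier results of these data known. The genes named are the members, Hopx, all measured receptors, relatives and peptidases, up to 4 called genes of each other list with the largest change, all cell type markers, the 5 genes nearest to each member and 3 neighbours on each side. A gene that this rule would name is not reported here. Genes of a list named beyond these were chosen after their values were seen.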

Additional observations from a re-analysis of the deposited data

How the results depend on the processing

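Leaving out 1 array at a time gave 4959 to 5842 genes higher and 4849 to 5985 lower, with 35 to 41 peptide system genes higher and 26 to 29 lower. Trh then ranged from 3.84 to 4.11, Calca from 3.79 to 4.08 and Cck from -4.08 to -3.74. With replicate 3 as labelled, no gene passed (0 higher, 0 lower, and 0 and 0 of the peptide system, limma), 62 genes had an unadjusted p under 0.05, and the members averaged 1.397 (Trh), 1.39 (Calca) and -1.05 (Cck), because 1 array then opposes 2. The signs of Apln (-0.033), Mrps25 (-0.0073), Scg2 (0.0049), Sox1 (-0.040) and Tnnt2 (0.35) turned there.

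Under median centring without loess the median gene lay at 0.23 and 73.9% of calls were higher, against 50.1% after loess, and it called 3016 genes lower. It gave 4.42 for Trh, 4.30 for Calca and -3.57 for Cck, and turned Magi1 (0.061), Nktr (0.079), Pgpep1 (0.054) and Thra (0.0046). Processed signals gave Calca 4.44, averaging its probes 2.32, and the authors' table gave 3.65, with 3910 genes and 25 peptide genes higher. The ordinary t statistic per probe called 1966 genes higher and 2032 lower, and 16 and 9 peptide genes, and lost 39 of the 81 calls among 96 named genes. With the authors' table, 8 were lost. At 2-fold, 965 genes were higher and 1195 lower, with 6 and 10 of the peptide system. None of these alternatives turned the sign of a member. The causes of the shifts were not tested.

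The ratio within an array already pairs the genotypes. Treating each channel as its own sample, with no replicate block, 4026 genes were higher and 4117 lower, and 10 named calls were lost. A dye term, added after seeing the data, gave 6569 higher and 6459 lower, with Trh at 3.97, Calca at 3.93 and Cck at -4.04. With 3 arrays and 1 spot per member probe, the spread of the members is known only roughly, and the dim Calca probe is limited by its signal over background.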
